A study of Mus musculus with 8 samples.

Results

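The genes described here act on RNA inside mitochondria: Gtpbp3, Mto1, Trmu, Pus1, Rpusd3 and Rpusd4 modify it, and Tfb1m, Tfb2m, Tfam and Lrpprc help to make, methylate or stabilise it. They were measured in LSK cells, the lineage-negative bone marrow cells with Sca-1 and Kit on their surface that hold the blood stem cells. 4 arrays are of control mice, labelled as wild type, and 4 of Msi2 KO mice, whose knockout (KO) of the RNA-binding protein Musashi-2 is conditional. The Cre driver, the time since deletion, the strain, the age and the number of mice per array are not given in the sources used here. The members were taken as every probe set annotated to 1 of these 10 genes alone, without those at 0 on all arrays. Of their 15 probe sets, 11 carried values (of 24404 measured in all) and 4 were listed at 0. The 11 stood for 9 genes, since the only probe set of Rpusd3, 1434626_at, was listed at 0, as were 1457975_at of Gtpbp3, 1431739_at of Mto1 and 1430828_at of Trmu. No probe set of the table was at 0 on some arrays only, and the lowest value of a measured member was 4.91 (Tfb1m on control 3). The genes were chosen with the measured differences between KO and control known, and their probe sets were selected on a value above 0. The differences below therefore describe these arrays and are no independent support.

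Mitochondria carry their own small genome, which is copied into long transcripts by a dedicated polymerase, cut into messenger, ribosomal and transfer RNAs, and translated on mitochondrial ribosomes into core subunits of the respiratory chain. All proteins that do this are encoded in the nucleus. Many of the transfer RNAs work only once their bases are modified, above all the wobble uridine of the anticodon, which reads the last base of a codon. In humans, inherited defects of PUS1 cause a sideroblastic anaemia with myopathy and lactic acidosis, and defects of GTPBP3, MTO1 and TRMU cause mitochondrial disease of heart or liver.

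The values are log2 signals, and each group mean is given with its SD over 4 arrays. The knockout was uneven: relative to controls, the mean Msi2 signal of 4 probe sets was lowest on Msi2 KO 3 (15.1%), then 40.5% for Msi2 KO 4, 63.4% for Msi2 KO 2 and highest on Msi2 KO 1 (72.6%). Msi2 KO 3 stood apart: the first principal component, with 28.6% of the variance, placed it at 69.4 and the other arrays between -39.4 and 17.0. Its 3' minus 5' difference of actin, a sign of RNA quality, was the highest (0.287, others -0.118 to 0.133), whereas that of Gapdh (1.70) lay within the range of the others (1.35 to 1.85). Xist was high on controls 2 to 4 and Msi2 KO 3 and 4 and low on the other 3 arrays, so the sexes were mixed in both groups. Every difference given below among arrays with low Xist therefore sets Msi2 KO 1 and 2 against control 1 alone. Ly6a (Sca-1) had no probe set named for it alone.

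The markers of LSK and stem cells were low on Msi2 KO 3. Of 9 measured, Kit alone had a higher mean in KO (8.39 to 9.16 in controls, 8.82 to 9.19 in KO), and the median difference of the 9 was -0.41. Their mean log2 signal on Msi2 KO 3 deviated from the control mean by -1.515, and on Msi2 KO 1, 2 and 4 by -0.027, 0.076 and -0.072. Hlf, a stem cell transcription factor, read 7.07 there and 9.77 to 10.22 on the other arrays, Procr (EPCR) 6.48 against 8.25 to 9.29, Mecom 6.28 against 8.20 to 9.07 and the receptor Flt3 7.52 against 9.20 to 9.85. Some marker lists of other cell types also moved with the group. Of 18 erythroid markers, 13 were measured, all with a higher mean in KO, and Hba-a1 and Alas2 were listed at 0. Their mean log2 signal ran from 6.90 to 7.93 in controls and from 7.79 to 9.54 in KO, highest on Msi2 KO 3, and their summed signal from 5275 to 10620 and from 8914 to 24520. The mast cell and basophil list (4 of 6 higher, Gzmb and Cma1 at 0) had mean log2 signals of 4.87 to 5.98 in controls and 5.83 to 6.96 in KO, and summed signals of 199.4 to 575.2 and 397.3 to 987.6. For macrophages and monocytes (8 of 9 higher, Cd14 and C1qa at 0) the means were 6.08 to 7.57 and 7.11 to 8.21 and the sums 2087 to 3326 and 2231 to 4061, with Msi2 KO 3 at the control mean. Lower in KO were the means of the B cell genes Cd79b and Vpreb1 (7.36 to 8.50 and 6.60 to 7.67, sums 328.2 to 755.4 and 210.4 to 408.8; Cd79a, Igll1, Pax5, Ebf1 and Ms4a1 at 0) and those of 4 of 5 stromal and endothelial genes (6.55 to 6.82 and 5.47 to 6.48, sums 666.6 to 928.4 and 296.3 to 648.2; Kdr, Col1a1, Col3a1, Cxcl12 and Lepr at 0). The 5 measured were Pecam1, Cdh5, Emcn, Pdgfrb and Tie1. Like the LSK markers, they were lowest on Msi2 KO 3, with a mean deviation of -1.18. On Msi2 KO 1, 2 and 4 it was -0.30, -0.17 and -0.21. A loss of stromal or endothelial cells cannot be read from this list. Of the T and NK cell genes Nkg7 was measured (9.47 to 9.76 and 9.60 to 10.34), and Cd3e, Cd3d, Cd3g, Cd4, Cd8a and Ncr1 were listed at 0. The remaining lists moved less clearly. Neutrophil genes were higher for 6 of 7 with a median of 0.06 (Camp and Ltf at 0), and cycling genes for 5 of 9 with a median of 0.008. Megakaryocyte genes were higher for 2 of 4 (Gp1bb, Gp9 and Gp6 at 0), with mean deviations of -0.09, 0.16, 0.06 and 1.16 on Msi2 KO 1 to 4. The part of these cell types in the differences below was not tested. In such bulk samples a change in the share of a cell type and a change in RNA per cell cannot be told apart.

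Gtpbp3 and Rpusd4 had all 4 KO arrays above every control, and no other member did in either direction. Such a gap was found upward in 3.12% and downward in 2.96% of all probe sets. Because such values chose the members, nothing is read from these shares. By their means, 9 of the 11 member probe sets were higher in KO (50.1% of all probe sets were) and the 2 probe sets of Tfam were lower. In limma's fit over all probe sets, none of the 11 passed an adjusted p of 0.05 (0.291 to 0.918), nor did any probe set of the table (0%, with 9.72% at an unadjusted p under 0.05). Of the members, Gtpbp3, Rpusd4 and Tfb2m were under an unadjusted p of 0.05, all higher in KO (4.87% of all probe sets).

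**Figure D1:**
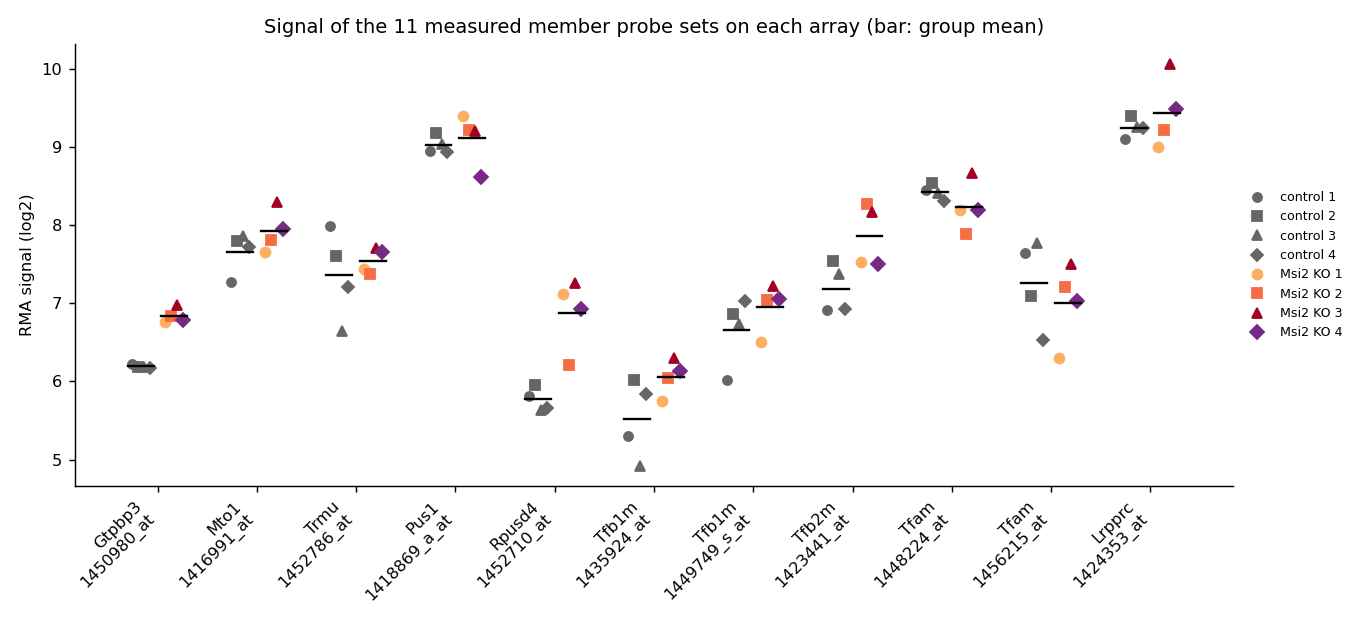
Log2 signal (y axis) of the 11 measured member probe sets (x axis) on each of the 8 arrays, with controls in grey, Msi2 KO in colour and a bar at each group mean. The controls of Gtpbp3 lie within 0.052 of each other and all KO arrays lie above them. The KO arrays of Rpusd4 also lie above its controls, and in the other 9 probe sets the groups overlap.

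Gtpbp3 and Mto1 work as a pair that adds a taurinomethyl group to the wobble uridine of several mitochondrial tRNAs, and Trmu puts sulphur on the same base. Gtpbp3 (1450980_at) read 6.22, 6.19, 6.19 and 6.17 on controls 1 to 4. On Msi2 KO 1 to 4 it read 6.76, 6.84, 6.98 and 6.79. The controls were nearly identical, the KO arrays were also close to each other, and a gap of more than 0.5 separated the groups. The group means were 6.19 ± 0.02 and 6.84 ± 0.10 (SD, n = 4 each), a difference of 0.65 with a 95% interval of 0.39 to 0.91, or 1.57-fold. The control SD of 0.02 compares with a median of 0.25 over all probe sets. Without Msi2 KO 3 the difference of Gtpbp3 was 0.60, and over the 8 left-out arrays it ran from 0.60 to 0.68. Among the 5 arrays with high Xist it was 0.70, and among the 3 with low Xist 0.58.

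Mto1 (1416991_at), the partner of Gtpbp3, read 7.27, 7.79, 7.86 and 7.72 in controls and 7.65, 7.81, 8.30 and 7.95 in KO. Its groups overlapped: control 1 was the lowest array and Msi2 KO 3 the highest, and 2 of 4 KO arrays lay above all controls. The difference was 0.27 (95% interval -0.16 to 0.69), and 0.14 without Msi2 KO 3 or without control 1. Trmu (1452786_at) read 7.99, 7.61, 6.64 and 7.20 in controls and 7.44, 7.37, 7.71 and 7.65 in KO. Here the controls held both the highest and the lowest array, and all KO arrays lay inside their range. The difference of 0.18 (-0.42 to 0.78) turned to -0.061 without control 3 and was 0.39 without control 1. Of the 3 enzymes that meet at one base of the tRNA, Gtpbp3 alone therefore had a gap between the groups. The 95% intervals of the 3 differences overlapped, and Msi2 KO 3 was the highest KO array for each.

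Pus1, Rpusd3 and Rpusd4 are pseudouridine synthases, which turn a uridine of an RNA chain into its isomer pseudouridine. In human cells RPUSD4 acts on the large mitochondrial ribosomal RNA and on a mitochondrial tRNA, and PUS1 on tRNAs of mitochondria and of the nucleus and cytosol. Rpusd4 (1452710_at) read 5.82, 5.96, 5.64 and 5.66 in controls. In KO it read 7.12, 6.22, 7.26 and 6.92. Msi2 KO 2 was only slightly above the highest control, while the other KO arrays lay well above it. The means were 5.77 ± 0.15 and 6.88 ± 0.47 (SD, n = 4 each), a difference of 1.11 (95% interval 0.60 to 1.62), or 2.16-fold. This was the widest difference of the 11 probe sets. It was 0.98 without Msi2 KO 3, 1.33 without Msi2 KO 2, 1.34 among the arrays with high Xist and 0.85 among those with low Xist.

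Pus1 (1418869_a_at) read 8.95, 9.18, 9.04 and 8.94 in controls and 9.40, 9.22, 9.20 and 8.62 in KO. 3 KO arrays lay above all controls and Msi2 KO 4 below them all. The difference was 0.08 (-0.32 to 0.49), and the KO arrays were more spread than the controls (SD 0.34 and 0.11). It was -0.012 without Msi2 KO 1 and 0.25 without Msi2 KO 4. Among the arrays with high Xist the difference of Pus1 was -0.14, among those with low Xist 0.36. Unlike Rpusd4, then, Pus1 showed no common direction, and Rpusd3 could not be compared.

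The RefSeq promoter windows of Gtpbp3 and Rpusd4 (mouse build GRCm38.p6, 250 bases before to 50 after the start of the gene) are shown because these genes had no overlap between the groups. Capitals mark 4 short motifs, each searched on both strands: GCATGCG, the core of the site of NRF1; CGGAAG, the core of the site of ETS factors such as GABPA; CACGTG, the E-box bound by MYC with MAX and by USF factors; and AAGATGG, the core of the site of YY1. All 10 genes had a window, and the motifs were chosen with the sequences in view. The Gtpbp3 window (chr8:71488478-71488777, plus strand) held none of them, and the Rpusd4 window (chr9:35267631-35267930, plus strand) held the E-box at 2 places and the YY1 core once, with no overlap.
Gtpbp3: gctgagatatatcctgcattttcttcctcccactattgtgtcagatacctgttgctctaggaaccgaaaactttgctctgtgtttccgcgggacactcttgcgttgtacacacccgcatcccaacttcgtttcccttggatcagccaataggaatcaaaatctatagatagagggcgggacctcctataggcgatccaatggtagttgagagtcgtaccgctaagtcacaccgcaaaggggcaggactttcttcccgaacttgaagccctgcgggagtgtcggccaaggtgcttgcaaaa
Rpusd4: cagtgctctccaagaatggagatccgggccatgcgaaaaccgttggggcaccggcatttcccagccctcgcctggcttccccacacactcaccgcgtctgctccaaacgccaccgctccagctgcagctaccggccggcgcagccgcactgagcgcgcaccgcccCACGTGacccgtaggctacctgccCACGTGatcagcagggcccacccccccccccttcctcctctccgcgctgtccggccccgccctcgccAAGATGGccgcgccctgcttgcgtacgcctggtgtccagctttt
Of all 32851 windows of this length, 7.15% held the E-box and 6.34% the YY1 core. The E-box was also in the window of Pus1, and the YY1 core in that of Mto1. A match of letters is a description and shows no binding.

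Tfb1m and Tfb2m are related proteins with different tasks: Tfb1m methylates adenines of the small mitochondrial ribosomal RNA, and Tfb2m opens the promoter for the mitochondrial RNA polymerase Polrmt. Tfb2m (1423441_at) read 6.91, 7.54, 7.37 and 6.93 in controls and 7.53, 8.27, 8.16 and 7.50 in KO. Msi2 KO 2 and 3 lay above all controls, while Msi2 KO 1 and 4 lay just below control 2, the highest control. The means were 7.19 ± 0.32 and 7.86 ± 0.41 (SD, n = 4 each), and the difference was 0.67 (95% interval 0.14 to 1.20), or 1.60-fold. It was 0.57 without Msi2 KO 3, 0.55 among the arrays with high Xist and 0.99 among those with low Xist. Tfb1m was measured by a pair of probe sets. The brighter, 1449749_s_at, read 6.02, 6.86, 6.74 and 7.03 in controls and 6.50, 7.04, 7.22 and 7.05 in KO, a difference of 0.29 (-0.26 to 0.84) that was 0.077 without control 1 and 0.44 without Msi2 KO 1. The other, 1435924_at, read 5.30, 6.01, 4.91 and 5.83 in controls and 5.75, 6.04, 6.30 and 6.14 in KO, a difference of 0.54 (-0.02 to 1.10), and of 0.34 without control 3. In both, Msi2 KO 2, 3 and 4 lay above all controls and Msi2 KO 1 did not. They ranked the controls differently, with control 1 lowest in one and control 3 in the other.

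Tfam packs and bends the mitochondrial DNA and is needed to start its transcription. Its brighter probe set 1448224_at read 8.45, 8.53, 8.41 and 8.31 in controls and 8.20, 7.89, 8.67 and 8.19 in KO. Msi2 KO 1, 2 and 4 lay below all controls and Msi2 KO 3 above them all, which gave a difference of -0.19 (-0.58 to 0.20), -0.34 without Msi2 KO 3 and -0.076 without Msi2 KO 2. The second probe set, 1456215_at, read 7.65, 7.09, 7.77 and 6.53 in controls and 6.30, 7.21, 7.50 and 7.03 in KO, with a difference of -0.25 (-0.99 to 0.49), which ranged from -0.013 without Msi2 KO 1 to -0.49 without control 4. Only Msi2 KO 1 lay outside its controls. Tfam was thus the one member whose mean was lower in KO on each of its probe sets, within intervals that include 0. Among the arrays with high Xist alone the differences were 0.0094 (1448224_at) and 0.13 (1456215_at), among those with low Xist -0.41 and -0.89.

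Lrpprc binds mitochondrial messenger RNAs together with Slirp and protects them from decay. Lrpprc (1424353_at) read 9.11, 9.39, 9.26 and 9.24 in controls and 8.99, 9.21, 10.06 and 9.48 in KO. Msi2 KO 3 and 4 lay above all controls and Msi2 KO 1 below them. The difference of 0.19 (-0.31 to 0.69) rested on Msi2 KO 3: without it the value was -0.02, and without Msi2 KO 1 0.34. Slirp differed by 0.34 ± 0.14 (SE), with 3 of 4 KO arrays above all controls.

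The windows of Tfb2m (chr1:179546227-179546526, minus strand) and Tfam (chr10:71237995-71238294, minus strand) are shown beside their values because both genes act in transcription and differed in sign. The Tfb2m window held the NRF1 core on both strands at 1 place, where the matches overlap, and the ETS core at 3 places, while the Tfam window held the ETS core once.
Tfb2m: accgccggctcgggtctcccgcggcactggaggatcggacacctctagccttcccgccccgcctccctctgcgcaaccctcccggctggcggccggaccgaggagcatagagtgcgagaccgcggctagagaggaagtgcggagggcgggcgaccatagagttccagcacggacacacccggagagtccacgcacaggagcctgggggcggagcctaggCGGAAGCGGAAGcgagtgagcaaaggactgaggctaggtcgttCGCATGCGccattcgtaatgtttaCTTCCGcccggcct
Tfam: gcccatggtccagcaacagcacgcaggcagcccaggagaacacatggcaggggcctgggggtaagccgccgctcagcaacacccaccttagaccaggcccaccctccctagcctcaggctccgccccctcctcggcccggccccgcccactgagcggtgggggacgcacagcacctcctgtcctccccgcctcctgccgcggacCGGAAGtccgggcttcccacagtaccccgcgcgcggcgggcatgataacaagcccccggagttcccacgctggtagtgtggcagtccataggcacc
The NRF1 core was in 3.58% and the ETS core in 16.85% of all windows. Among the members, the NRF1 core was also in the window of Rpusd3, and the ETS core in those of Trmu and Pus1. Of the factors, Nrf1 differed by -0.19 ± 0.19, Gabpa by -0.17 ± 0.13, Myc by 0.16 ± 0.17 and Yy1 by -0.04 ± 0.13 (log2 difference with SE, n = 4 each), and limma passed none of them. Without Msi2 KO 3 Nrf1 differed by -0.27, Gabpa by -0.22, Myc by 0.088 and Yy1 by -0.085.

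**Figure D2:**
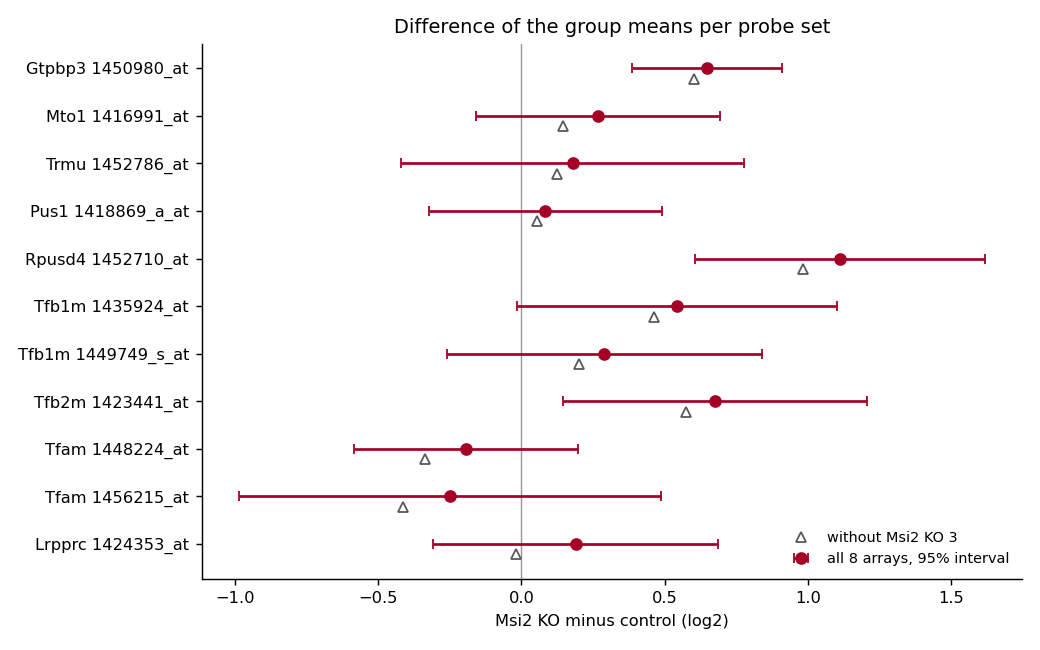
Difference of the group means, Msi2 KO minus control on the log2 scale (x axis), for each measured member probe set (y axis), with the 95% interval of limma's fit over all probe sets, and as a triangle the difference without Msi2 KO 3. The intervals of Gtpbp3, Rpusd4 and Tfb2m lie above 0, and the triangle of Lrpprc lies at -0.02.

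Across the KO arrays, Msi2 KO 3 was the high one. Taking the brightest probe set of each gene, the number of members above all controls was 8 of 9 for Msi2 KO 3 (31.7% of all genes), 5 for Msi2 KO 2 (25.6%), 5 for Msi2 KO 4 (21.8%) and 3 for Msi2 KO 1 (22.2%). Msi2 KO 3 was the highest of the 4 KO arrays for 7 of 9 members (32.8% of all genes), with Pus1 and Tfb2m as the exceptions. The median deviation of the 9 genes from their control means was 0.08, 0.19, 0.64 and 0.29 on Msi2 KO 1 to 4. The 4 arrays stood in the same order by the mean of the erythroid markers (0.43, 0.86, 2.17 and 1.16 above the control mean) and by the loss of Msi2 signal given above. The first principal component of all probe sets also gave this order (-21.6, -1.7, 69.4 and 17.0), so it was not particular to the members. Of these 4 arrays, Msi2 KO 3 and 4 were those with high Xist. With 4 arrays, such links cannot be told apart, and none was tested. Among the probe sets, Gtpbp3 had the narrowest range over the KO arrays (0.22), and Tfam 1456215_at (1.20), Lrpprc (1.07) and Rpusd4 (1.05) had the widest.

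**Figure D3:**
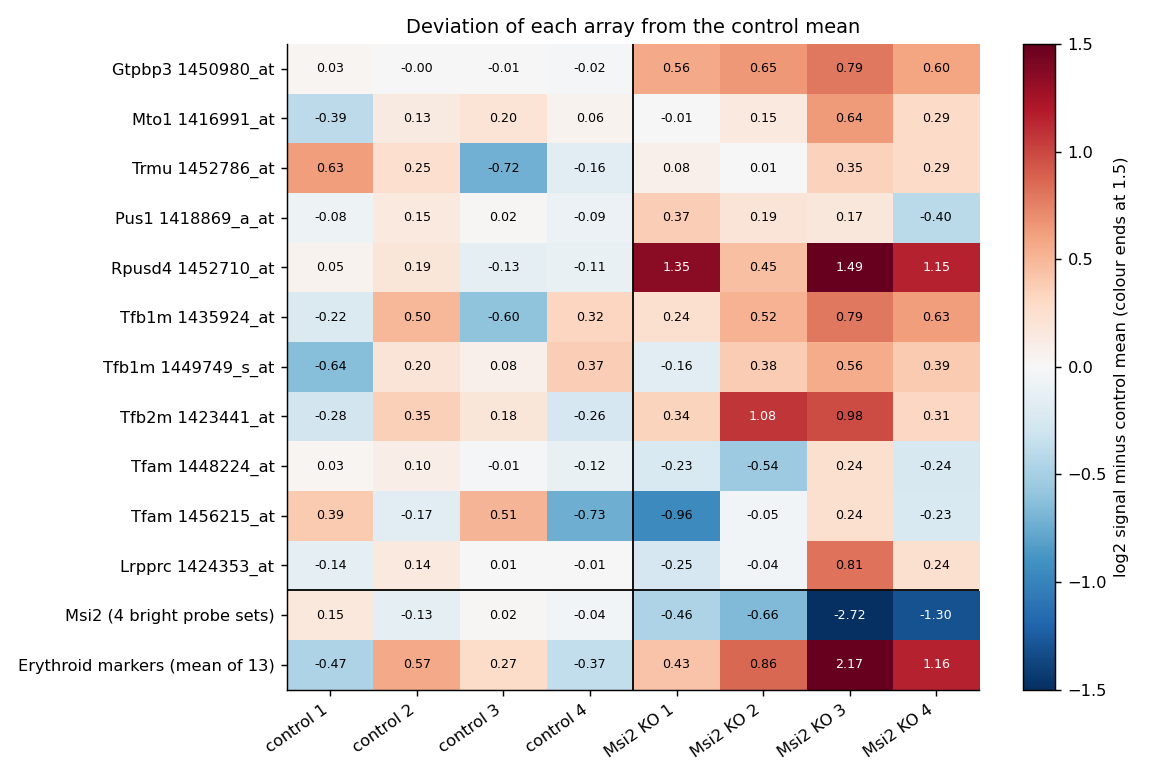
Deviation of each array (columns) from the control mean on the log2 scale, for the member probe sets and, below the line, for Msi2 and the mean of the 13 measured erythroid markers. The colour scale ends at 1.5 and the printed values do not. Msi2 KO 3 has the lowest Msi2 (-2.72), the highest erythroid mean (2.17) and positive deviations in all member probe sets.

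The members did not share one profile over the 8 arrays. As a measure of likeness, each profile of a gene's brightest probe set was centred on its own mean, and the root mean square of the difference between profiles was taken in log2 units. This distance grows with the amplitude of the profiles, whose own root mean square ran from 0.221 for Pus1 to 0.631 for Rpusd4, so it ranks the neighbours of one member and not the members. From Mto1, the nearest members were Lrpprc (0.165) and Tfb1m (0.184), and from Rpusd4 the farthest was Tfam (0.672). From Gtpbp3, the nearest member was its partner Mto1 (0.284), while Trmu lay at 0.426. Among all 10720 genes, the nearest to Gtpbp3 were Bola3 (0.083), Mrpl52 (0.113) and Prim2 (0.113). Bola3 serves iron-sulphur cluster assembly, Mrpl52 is a protein of the large mitochondrial ribosomal subunit, and Prim2 is a primase subunit. Nearest to Rpusd4 were Ercc8 (0.226), Tspan33 (0.281) and Mogs (0.306). Rev3l, Rfx2 and Isca1 lay nearest to Tfb2m (0.109 to 0.152), Clint1, Carnmt1 and Gpn3 to Mto1 (0.084 to 0.093), and Tmed3, Ece2 and Fam91a1 to Tfb1m (0.089 to 0.099). Surf1, an assembly factor of cytochrome oxidase, was nearest to Trmu (0.138), before Nt5dc2 and Wars. Nearest to Tfam were Faim, Rab18 and Mmadhc (0.063 to 0.077), and nearest to Lrpprc were Ecsit, Psmd4 and Tmem208 (0.079 to 0.080). The nearest to Pus1 were Ighmbp2 (0.062), which read only 3.87 to 4.54, Pmpca and Lin37. No member was among the 3 nearest genes of another. With 10720 genes competing for these places, that says little about how alike the members are.

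The other genes of mitochondrial gene expression, taken from 6 lists, had 104 measured genes beside the members, each read from its brightest probe set. Of these, 70 had a higher mean in KO and 34 a lower one (67.3% higher, against 50.4% of all genes), and the median difference was 0.11 against 0.002 over all genes. Limma's fit over all genes passed none of them at an adjusted p of 0.05 (0 of 10720 in all, 0%). At an unadjusted p under 0.05 stood 9 higher (8.65%) and 2 lower (1.92%), against 5.74% and 5.66% of all genes. In 5 of them every KO array was above the highest control, and in 2 every KO array was below the lowest (3.63% and 3.48% of all genes). Msi2 KO 1, 2 and 4 were above all controls for 22.1%, 30.8% and 37.5% of the 104 (22.2%, 25.6% and 21.8% of all genes). Msi2 KO 3 was above all controls for 66 of the 104 (63.5%, against 31.7% of all genes). It was the highest KO array for 66 as well (32.8% of all genes). Without it 61 of 104 were higher and the median was 0.04. The median deviation of these genes was -0.10, 0.09, 0.43 and 0.11 on Msi2 KO 1 to 4, measured from the control mean of each gene.

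By role, the other tRNA-modifying genes were higher for 11 of 17, with a median of 0.21 (0.07 without Msi2 KO 3). Nsun2, a cytosine methyltransferase, differed by 0.50 ± 0.21 (0.33 without Msi2 KO 3), Trnt1, which adds the CCA end to tRNAs, by 0.29 ± 0.13, and Trmt1, a guanine methyltransferase, by 0.49 ± 0.23 (SE here and in the next paragraph, n = 4 each). Trnt1 had all 4 KO arrays above the controls. The genes of ribosomal RNA modification and ribosome assembly were higher for 14 of 22, with a median of 0.07 (12 of 22 and 0.023 without Msi2 KO 3). They were led by Mpv17l2 (0.61 ± 0.19) and the helicase Dhx30 (0.49 ± 0.16), both with all KO arrays above the controls, while the ribose methyltransferase Mrm1 differed by -0.40 ± 0.19. Trub2, a further pseudouridine synthase and next in order, stood at -0.39, on the other side of 0 from Rpusd4, and was named after its value was seen.

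The genes of mitochondrial DNA transcription and maintenance were higher for 8 of 17, with a median of -0.0078 (-0.038 without Msi2 KO 3). Polrmt, the RNA polymerase that works with Tfb2m and Tfam, differed by 0.69 ± 0.27. It read 7.04, 6.83, 7.02 and 7.14 in controls and 7.04, 8.50, 7.74 and 7.49 in KO, so Msi2 KO 1 lay among the controls and the other 3 above them. Msi2 KO 2 was the highest array for both Polrmt and Tfb2m. Mterf2, a member of the termination factor family, differed by -0.49 ± 0.13 with all KO arrays below the controls, at 5.08 to 5.41 and 4.63 to 4.84, and Primpol, a primase-polymerase, by 0.54 ± 0.24. The only mitochondrially encoded transcript with a probe set named for it alone was ND5, a subunit of complex I, at 12.60 ± 0.09 in the 4 controls and 12.45 ± 0.22 on the KO arrays (SD), a difference of -0.15.

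Of the genes of RNA processing and stability, 15 of 19 were higher (median 0.18, 0.06 without Msi2 KO 3). First in order of limma's p, though not of the size of the difference, were Slirp, Fastk and Hsd17b10. Fastk differed by 0.28, with all KO arrays above the controls, and Hsd17b10, a subunit of the tRNA-cutting RNase P, by 0.29. The list of mitochondrial aminoacyl-tRNA synthetases also held Qrsl1, Gatb and Gatc, which are subunits of a tRNA amidotransferase and no synthetases. It held Gars and Kars as well, which also serve the cytosol. Of its measured genes, 16 of 20 were higher (median 0.16, 0.10 without Msi2 KO 3). Vars2 differed by 0.41 (0.43 without Msi2 KO 3) and Iars2 by 0.47 (0.33 without it). Lars2, which charges the leucine tRNAs, went the other way (-0.44 ± 0.15). The translation factors were higher for 6 of 9 (median 0.29, 0.05 without Msi2 KO 3). The elongation factors Gfm1 and Tufm differed by 0.46 and 0.38 (0.32 and 0.27 without Msi2 KO 3). Guf1 differed by -0.53 (-0.76 without it), and in each of these genes the groups overlapped. The regulators of mitochondrial biogenesis were split, with 5 of 11 higher and a median of -0.04 (-0.073 without Msi2 KO 3). Ppargc1b, a coactivator of mitochondrial genes, differed by 0.45 ± 0.17 and Tfe3 by 0.59 ± 0.24 (0.35 and 0.51 without Msi2 KO 3). Gabpb1, the partner of Gabpa, differed by -0.32 ± 0.12, with all KO arrays below the controls. Esrra (0.26, and 0.41 without Msi2 KO 3) and Pprc1 (0.20, and 0.025 without it) differed by about 1 SE, and Ppargc1a was listed at 0. All of these genes missed the adjusted threshold (smallest adjusted p 0.275, for Mterf2).

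**Figure D4:**
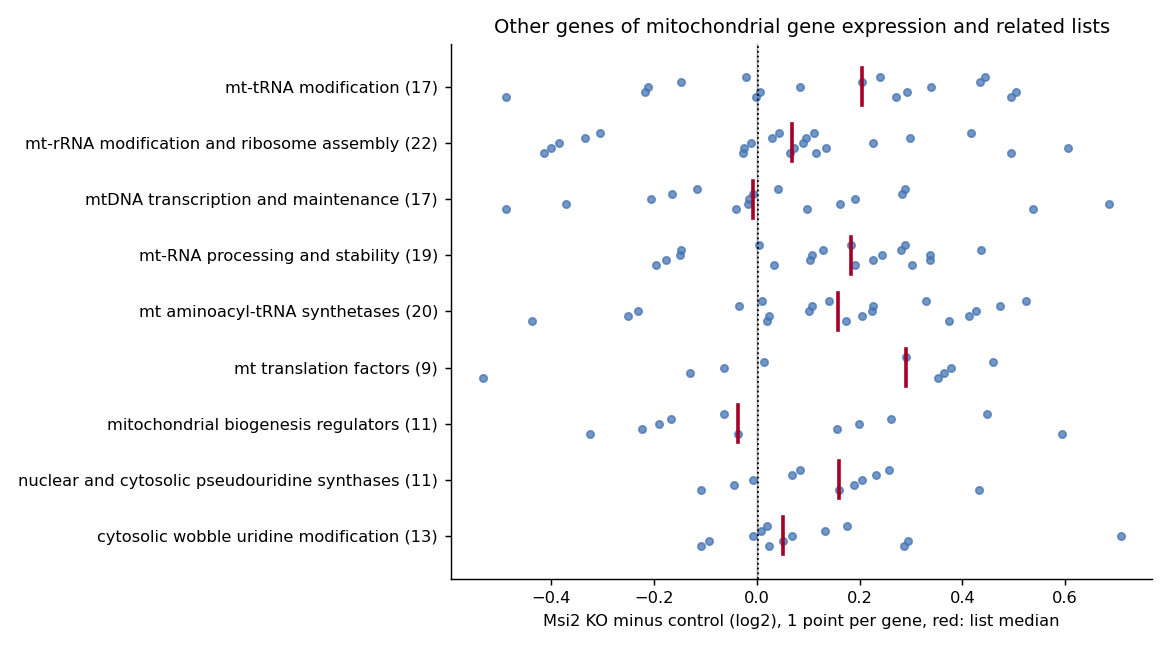
Difference of the group means, Msi2 KO minus control on the log2 scale (x axis), for each gene (points) of the lists named on the y axis, with the number of measured genes beside the members in brackets, the list median in red and the median of all genes as a dotted line. Medians run from -0.04 for the biogenesis regulators to 0.29 for the translation factors.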

How the data were processed

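The authors deposited log2 values for each probe set of 8 Affymetrix arrays, normalized with RMA (no version stated) per the submitters' processing notes. 20664 of 45101 probe sets were exactly 0 on all arrays by an unstated step and were left out. Names came from the platform annotation, updated through gene IDs with a RefSeq table of GRCm38.p6. Probe sets (24404) and genes (10720, each by its brightest probe set named for it alone) were fitted with limma 3.58.1 in R 4.3.3 (lmFit, eBayes, two-sided, Benjamini-Hochberg over the whole table). Intervals cover 95%. Nothing says whether replicates are separate animals. The p-values therefore set each difference against the spread between these arrays, which eBayes draws towards a prior taken from the whole table. The number of arrays limits the precision. On simulated data of 24404 probe sets for this comparison, the fit recovered 0% of 200 changed ones where the log2 change was 0.5, 41.5% where it was 1 and 86.0% where it was 2. The members, lists and motifs were chosen with earlier results of these data known. Named are all members, the 3 genes of each list with the smallest p, the 3 nearest in profile to each member, and fixed regulators. Outside this rule, Yy1 was named beside its motif and Trub2 after its value was seen. Alternatives covered scaling, level filter, prior, array weights, replicate block, Xist class, left-out arrays, fold minimum and choice of probe set.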

Additional observations from a re-analysis of the deposited data

How the results depend on the processing

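No member probe set and none of the 104 other genes of mitochondrial gene expression passed the adjusted threshold under any alternative run. Adjusted p of Gtpbp3 ranged from 0.180 to 0.709 and that of Rpusd4 from 0.155 to 0.745. Over the whole table, probe sets past the threshold went from 0 to 1 with repeated quantile normalization, without probe sets below the median level and with array weights, to 2 with an intensity trend and robust prior, and ranged from 0 to 1 over the left-out arrays; the cause was not tested. Genes went from 0 to 5 with Xist class as a covariate and ranged from 0 to 1 over the left-out arrays. The differences of Gtpbp3, Rpusd4, Mto1, Tfb1m and Tfb2m kept their sign in every setting that retained them. Pus1 turned to -0.074 with array weights and -0.14 in the arrays with high Xist, and ranged from -0.012 to 0.25 over the left-out arrays. Trmu turned to -0.59 in the arrays with low Xist, where control 1 was the only control, and ranged from -0.061 to 0.39 over the left-out arrays. Lrpprc stood at -0.0023 in the arrays with low Xist and ranged from -0.018 to 0.34. Tfam turned to 0.0094 and 0.13 in the arrays with high Xist. Replicate numbers are shared by the groups, but same-numbered arrays did not deviate together (correlations 0.132, -0.121, 0.079 and -0.038, and not every array correlated best with its own number). With the replicate block 0 probe sets and 0 genes passed, as without it, and Gtpbp3 had an adjusted p of 0.450. The level filter left out Gtpbp3 and Rpusd4 themselves, whose signals lie below the median. With 4 arrays a group, changes near 0.5 on the log2 scale were not recovered in simulation, so missing the threshold does not show that a gene did not differ.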

Other observations

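The cytosol and nucleus hold counterparts of the mitochondrial enzymes. Of 11 measured genes of nuclear and cytosolic pseudouridine synthesis, 8 had a higher mean in KO (72.7%, against 50.4% of all genes). Their median was 0.16 (0.07 without Msi2 KO 3) and limma passed none. Nop10, a protein of the guide RNA-dependent pseudouridylation complex, read 11.95, 11.84, 11.94 and 12.02 in controls and 12.16, 12.11, 12.21 and 12.21 in KO, with all KO arrays above the controls and a difference of 0.23 ± 0.11 (SE). Pus10 differed by 0.43 (0.25 without Msi2 KO 3) and Pus7 by 0.26 (0.07 without it).

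Of 13 measured genes of wobble uridine modification in the cytosol, 10 were higher (76.9%, against 50.4% of all genes), with a median of 0.05. In the 6 lists of mitochondrial gene expression the share was 67.3%, so a share above that of all genes was not seen in those lists alone. Without Msi2 KO 3, 8 of these 13 were higher (median 0.06), as were 6 of the 11 genes of pseudouridine synthesis. The count was then 61 for the 104 genes of the 6 lists and 5327 for all 10720 genes. With lists of 11 and 13 genes, little is read from these shares. Ctu2, part of the enzyme that thiolates cytosolic tRNAs as Trmu does mitochondrial ones, stood out among the cytosolic wobble uridine genes. It read 9.74, 9.83, 9.28 and 9.66 in controls and 10.66, 10.51, 10.10 and 10.08 in KO, so that all KO arrays lay above the controls and Msi2 KO 1 was the highest. The difference was 0.71 ± 0.19 (SE), and 0.79 without Msi2 KO 3, with an adjusted p of 0.282 in limma's fit over all genes. Elp5, a subunit of the Elongator complex, differed by 0.29 and Trmt112 by 0.18.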
